A study of Mus musculus with 4 samples.

Results

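The genes described here encode channels, pumps and exchangers of calcium and other cations, their subunits and sensors, and store proteins. They were chosen by gene symbol: the pore and auxiliary subunits of voltage-gated calcium channels, ryanodine and IP3 receptors, calcium pumps, the TRPC, TRPM and TRPV channels, STIM and ORAI proteins, sodium-calcium exchangers and calsequestrins. Of 72 such symbols in the gene table, 66 had a probe set that carried that symbol alone, out of 19296 genes on the array. The others were not analysed here.

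In smooth muscle, calcium enters the cell through channels of the surface membrane and is released from the sarcoplasmic reticulum through IP3 and ryanodine receptors. The rise in calcium activates myosin light chain kinase through calmodulin, and contraction follows. SERCA pumps refill the store, plasma membrane pumps and sodium-calcium exchangers expel calcium, and STIM and ORAI proteins open an entry path when the store empties. In the ureter this cycle drives the peristaltic waves that carry urine to the bladder.

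Each of 4 Affymetrix whole-transcript arrays held ureter RNA of 1 male mouse, with 129Sv/C57BL6 mix as the strain. In the wild type group were 2 miR-143/145+/+ mice, aged 4.5 months and with normal kidneys. The 2 knockout mice were miR-143/145-/-, which lack a pair of microRNAs abundant in smooth muscle, and they were 2.5 months old with hydronephrosis, a distension of the kidney by urine. Genotype, age and kidney state changed together and cannot be told apart, so each difference below is one between these groups of mice. How the allele was made was not stated in the labels. In bulk tissue, fewer cells of a type and less RNA per cell cannot be told apart either.

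The values are log2 expression values, and 1 unit is a doubling. Mir145a read 8.28 and 8.42 in wild type mice and 4.60 and 5.02 in knockout mice, and Mir143 read 7.64 and 7.85 against 6.48 and 6.53, which fits the labels. A background level of 6.58 was taken from 1024 olfactory receptor genes, which ureter should lack. Between 13515 and 14231 genes lay above it on each array, the higher counts on the wild type arrays. Of the 10 smooth muscle markers and of the 12 urothelium markers, all lay above background on all 4 arrays. Limma compared the genotypes, with p-values adjusted over all genes and a threshold of 0.05. By that rule 367 genes were higher and 92 lower in knockout, or 80.0% of calls higher, and 49.4% with arrays centred on their medians (309 higher and 317 lower).

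Of the 66 calcium genes, 2 rose in knockout ureter and 0 fell, against backgrounds of 1.90% of all genes called higher, 0.477% called lower and 2.38% called in either direction. The genes that rose were Slc8a3, a sodium-calcium exchanger, and Cacna1d, the pore of the L-type channel Cav1.3. The rises make up 3.03% of the members, a share near the background. Before adjustment, 13 members were higher and 15 lower at a limma p under 0.05, or 19.7% and 22.7%, where the backgrounds were 12.7% and 13.8%. The lower count depended on the scaling and on the mice, with 6 after a further quantile normalization, 22 with arrays centred on their medians and 4 without wild type replicate 2. The mice of the genotypes did not overlap for 44 members, or 66.7%, against 60.0% of all genes. Of these members 19 were higher and 25 lower, where 28.0% and 32.0% of all genes were. The median difference of the members was -0.07 and that of all genes -0.02, and with centred arrays -0.15 and -0.10.

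The direction of the differences followed the brightness of the gene, both for the members and for all genes. Among the 27 members with a mean level more than 1 log2 unit above background, 22 were higher in knockout and 5 lower, with a median difference of 0.31. Of all 10635 genes that bright, 6574 were higher and 4061 lower, with a median of 0.08. The 2 rises were 7.41% of these bright members, against 3.35% of all bright genes called in either direction. Among the 19 members with a mean up to 1 unit above background, 17 were lower and the median was -0.25, while the median of the 3172 genes of that level was -0.13. All 20 members with a mean at or below background read lower, with a median of -0.27, and the median of the 5489 genes of that level was -0.12. The part of this drift of dim genes in the lower values of dim members was not tested.

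**Figure D1:**
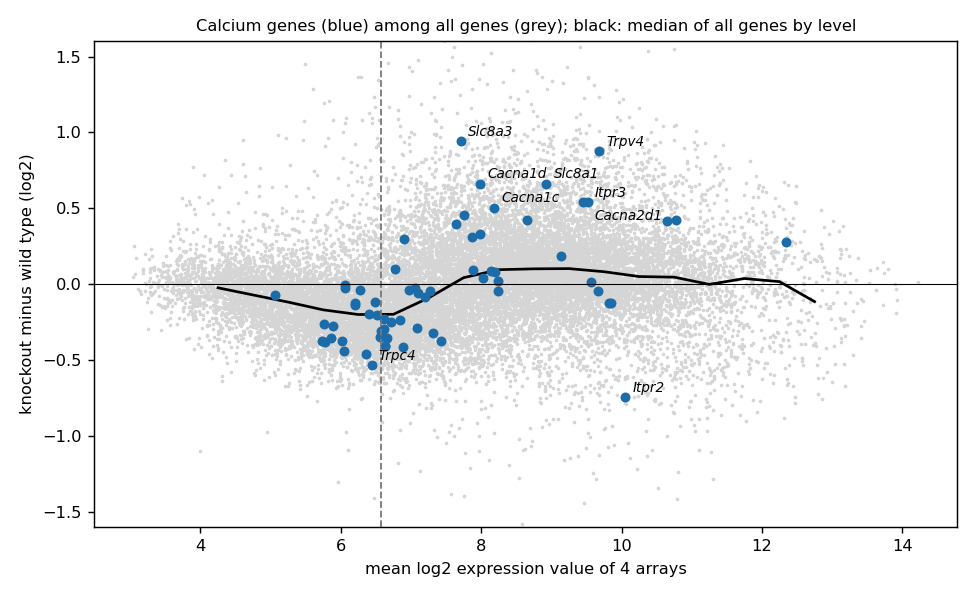
Difference between genotypes (knockout minus wild type, log2) against the mean log2 value of the 4 arrays, with the 66 calcium genes in blue, all genes in grey, their median by level as a black line and the background level dashed; genes beyond the axis range are not drawn. Of the 39 calcium genes with a mean of at most 1 unit above background, 37 lie below 0, as the median of all dim genes does, and Ryr3 and Trpm3 lie above 0, while Slc8a3, Trpv4, Slc8a1 and Cacna1d lie above 0 and Itpr2 below it among brighter genes.

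**Figure D2:**
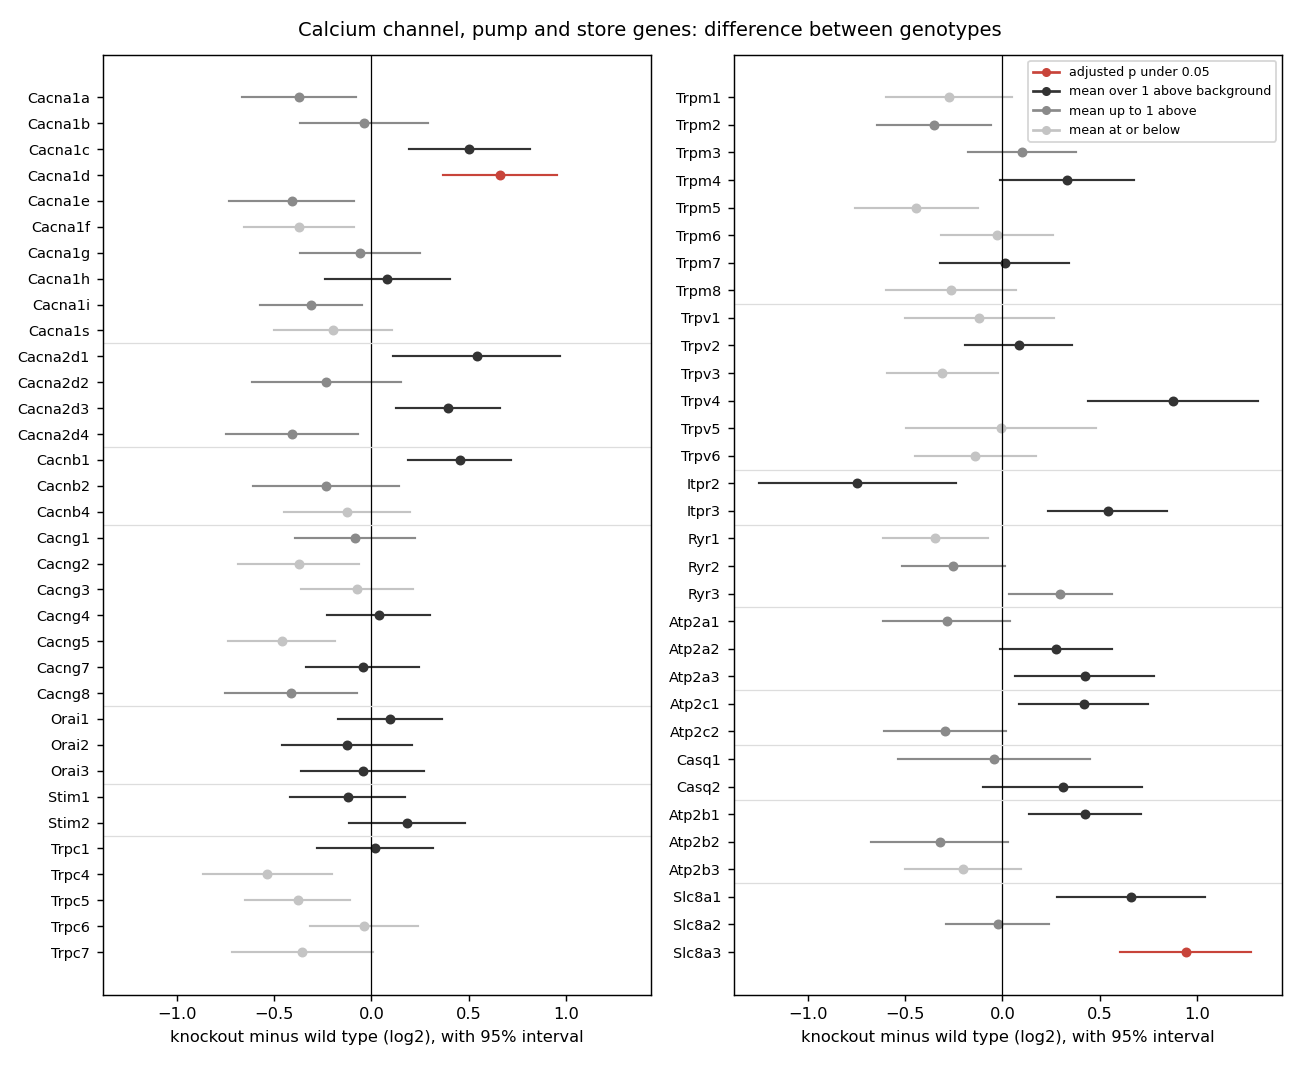
Difference between genotypes (knockout minus wild type, log2) with its 95% interval from limma for each of the 66 genes, grouped by role. Only Slc8a3 and Cacna1d, in red, passed an adjusted p of 0.05, and grey shades give the mean level of the gene against background.

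The sodium-calcium exchangers of the surface membrane remove calcium in trade for sodium and can run in reverse. Slc8a3, which encodes NCX3, read 7.15 and 7.33 in wild type mice and 8.04 and 8.32 in knockout mice. Both knockout mice lay above both wild type mice. The rise was 0.94 on the log2 scale (SE 0.14), or 1.92-fold, with a limma adjusted p of 0.0353. Slc8a1, which encodes NCX1, the main exchanger of heart and smooth muscle, read 8.82 and 8.38 in wild type mice and 9.28 and 9.24 in knockout mice. Its groups did not overlap either, but the difference of 0.66 did not pass (adjusted p = 0.0729). A dimmer probe set of Slc8a1 read 7.50 and 6.75 against 8.27 and 8.05, a difference of 1.04 (adjusted p = 0.0725 when every probe set was fitted). Slc8a2, the form best known from brain, differed by -0.03 with a 95% interval from -0.29 to 0.24. The intervals of Slc8a3 and Slc8a2 did not overlap; the difference between the isoforms was not tested.

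Voltage-gated channels are built around an alpha-1 pore, which opens when the membrane depolarises. Cacna1d read 7.73 and 7.57 in wild type mice and 8.24 and 8.38 in knockout mice. It rose by 0.66 (SE 0.13), or 1.58-fold, at a limma adjusted p of 0.0499, just inside the threshold. Cacna1c encodes Cav1.2, the L-type pore that carries the calcium current of smooth muscle. It read 8.06 and 7.81 in wild type mice and 8.49 and 8.39 in knockout mice, with no overlap. Its difference of 0.50 did not pass (adjusted p = 0.0812), and its 95% interval ran from 0.19 to 0.82, which holds the value of Cacna1d. The T-type pore gene Cacna1h read 8.12 and 8.20 against 8.10 and 8.38, so the genotypes overlapped. Cacna1g, another T-type pore gene, overlapped as well at 7.01 and 7.26 against 7.03 and 7.12. Cacna1a, the P/Q-type pore of nerve endings, read 7.54 and 7.68 in wild type mice and 7.31 and 7.16 in knockout mice (adjusted p = 0.120). Cacna1b, an N-type pore, differed by -0.04. Cacna1e and Cacna1i lay near background, at most 6.89 and 6.75, and below it in knockout mice. Cacna1f and Cacna1s, the pores of retina and skeletal muscle, lay below background on all arrays.

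The calls of both genes rested on the wild type pair. Without wild type replicate 1 the limma adjusted p was 0.183 for Slc8a3 and for Cacna1d, and without wild type replicate 2 it was 0.216 and 0.239. With either wild type mouse left out limma called 0 of the 19296 genes, where 4253 and 3079 genes had an unadjusted p under 0.05. The differences themselves stayed between 0.85 and 1.04 for Slc8a3 and between 0.58 and 0.74 for Cacna1d when a wild type mouse was left out. Cacna1d was also lost without knockout replicate 2 (adjusted p = 0.0880), with array weights (0.0515), with a further quantile normalization (0.0727), with centred arrays (0.0533) and when every probe set was fitted as its own row. Slc8a3 kept its call in each of these 5.

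**Figure D3:**
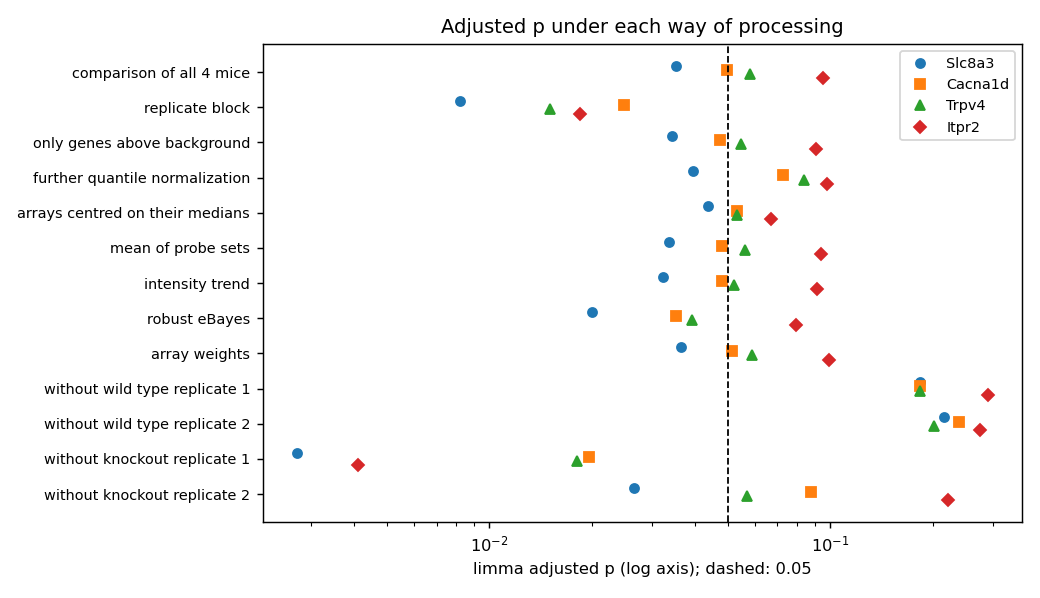
Limma adjusted p (log axis) of Slc8a3, Cacna1d, Trpv4 and Itpr2 in the comparison of all 4 mice and under each other way of processing, with the threshold dashed. Slc8a3 lies to the left of the threshold except where a wild type mouse was left out, while Cacna1d lies on either side of it, from 0.0196 without knockout replicate 1 to 0.239 without wild type replicate 2.

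The 250 bases before the annotated starts of Slc8a3, Cacna1d and Trpv4 are shown because the first 2 are the members that rose and Trpv4 is the next by p. They are RefSeq sequences of build GRCm38.p6, all from the minus strand and written 5′ to 3′. Slc8a3 lies at chr12:81333181-81333430, the 2 starts of Cacna1d at chr14:30491157-30491406 and chr14:30353487-30353736, and Trpv4 at chr5:114658422-114658671. Capitals mark letters of the motifs searched on both strands: TATA box TATAAA, GC box GGGCGG, E box CANNTG, NFAT core GGAAAA, M-CAT element CATTCC, and the CArG box, which is bound by serum response factor.
Slc8a3: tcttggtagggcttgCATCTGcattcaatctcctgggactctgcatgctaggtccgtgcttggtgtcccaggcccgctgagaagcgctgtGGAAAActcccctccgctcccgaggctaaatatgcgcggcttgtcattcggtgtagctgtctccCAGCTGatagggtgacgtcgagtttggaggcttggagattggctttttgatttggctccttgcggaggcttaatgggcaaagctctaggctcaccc
Cacna1d, first start: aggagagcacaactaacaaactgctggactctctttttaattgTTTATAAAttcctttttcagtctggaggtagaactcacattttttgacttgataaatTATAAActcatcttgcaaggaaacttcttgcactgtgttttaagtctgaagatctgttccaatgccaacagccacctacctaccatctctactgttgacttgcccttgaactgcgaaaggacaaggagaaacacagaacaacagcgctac
Cacna1d, second start: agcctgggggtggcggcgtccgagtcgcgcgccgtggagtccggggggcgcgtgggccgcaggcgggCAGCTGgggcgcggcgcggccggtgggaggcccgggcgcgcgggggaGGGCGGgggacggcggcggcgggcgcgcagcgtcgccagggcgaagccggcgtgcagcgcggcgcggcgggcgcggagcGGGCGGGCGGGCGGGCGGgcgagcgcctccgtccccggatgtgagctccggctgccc
Trpv4: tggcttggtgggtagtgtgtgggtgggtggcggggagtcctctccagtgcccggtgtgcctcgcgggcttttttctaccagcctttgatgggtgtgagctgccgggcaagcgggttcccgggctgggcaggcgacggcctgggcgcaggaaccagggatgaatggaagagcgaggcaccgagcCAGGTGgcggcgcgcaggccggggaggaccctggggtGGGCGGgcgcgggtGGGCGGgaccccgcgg

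The window of Slc8a3 held 2 E boxes and 1 NFAT core. The first start of Cacna1d held 3 TATA box matches, of which a pair overlap on opposite strands, in a window of 39.6% G and C. The second start held 5 GC box matches, 4 of them overlapping in an unbroken run, and 1 E box, in a window of 86.4% G and C. The window of Trpv4 held 2 GC boxes and 1 E box. No CArG box and no M-CAT element was found in any of the 4 windows, which says only that these letters are not there. Of 32851 windows of all genes, 66.2% held an E box, 32.7% a GC box, 20.4% an NFAT core, 12.6% an M-CAT element, 12.4% a TATA box and 1.47% a CArG box. Windows were found for 55 of the 66 members, 71 in all, and of these 47 held an E box, 33 a GC box, 8 an NFAT core, 7 an M-CAT element, 5 a TATA box and 2 a CArG box. A match is a run of letters and not a measured site.

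Auxiliary subunits carry the pore to the membrane and tune its current. Cacna2d1, the main alpha2delta subunit of muscle, read 9.43 and 8.93 in wild type mice and 9.63 and 9.82 in knockout mice. Its difference of 0.54 did not pass (adjusted p = 0.124) and was 0.29 without wild type replicate 2, and its other probe set differed by 0.52. Cacna2d3 read 7.45 and 7.44 against 7.88 and 7.80, with groups apart and no call (adjusted p = 0.0950). Cacna2d4 read 6.83 ± 0.23 (SD, n = 2) in wild type and below background in knockout mice, and Cacna2d2 lay near background. Among the beta subunits, which bind the pore from inside the cell, Cacnb1 read 7.52 and 7.54 in wild type mice and 7.98 ± 0.02 (SD, n = 2) in knockout mice (difference 0.45, adjusted p = 0.0742). Cacnb2, the form best known from heart, overlapped at 6.81 and 7.12 against 6.88 and 6.58 (adjusted p = 0.380), and Cacnb4 lay below background on all arrays.

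The gamma family holds a skeletal muscle subunit, Cacng1, and several proteins that act on glutamate receptors. Cacng1, Cacng4 and Cacng7 overlapped between genotypes, with differences between -0.09 and 0.04. Cacng8 read 6.94 and 7.26 in wild type mice and 6.63 and 6.74 in knockout mice (adjusted p = 0.131). Cacng5 read 6.53 and 6.65 against 6.14 and 6.12, so knockout lay below background, and the difference was not called (adjusted p = 0.0767). Cacng2 and Cacng3 lay below background on all arrays.

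Store-operated entry showed small differences. Stim1, a calcium sensor of the store, read 9.91 and 9.90 in wild type mice and 9.89 and 9.68 in knockout mice. Stim2, a second sensor, read 9.15 and 8.94 against 9.27 and 9.19. The 95% interval of the difference ran from -0.42 to 0.17 for Stim1 and from -0.12 to 0.48 for Stim2. Orai1, the pore that STIM proteins open, read 7.87 and 7.81 in wild type mice and 7.96 and 7.91 in knockout mice, with an interval from -0.17 to 0.36. Orai2 read 10.06 and 9.72 against 9.77 and 9.76, and Orai3 differed by -0.05, so both overlapped. A dimmer probe set of Orai2 went the other way, with 7.78 and 7.97 in wild type mice and 8.09 and 8.34 in knockout mice, and the mean of both differed by 0.11. None of the 5 genes passed (adjusted p between 0.390 and 0.858).

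TRP channels pass cations in answer to receptors, stretch, heat or metabolites. Trpv4, which responds to stretch and osmotic swelling and is abundant in urothelium, read 8.97 and 9.52 in wild type mice and 10.08 and 10.16 in knockout mice. Both knockout mice lay above both wild type mice, and the difference was 0.88 (SE 0.19). At a limma adjusted p of 0.0581 it lay just outside the threshold. It passed with robust eBayes (0.0393) and with the replicate number as a block, and under no other processing of the full set of mice at that threshold. Its difference ran from 0.60 to 1.15 with a mouse left out. Trpv2 read 8.10 and 8.10 against 8.25 and 8.12. Trpv3 read 6.80 and 6.66 in wild type and lay below background in knockout mice (adjusted p = 0.163), Trpv1 lay near background, and Trpv5 and Trpv6, the calcium uptake channels of epithelia, lay below it on all arrays.

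Of the TRPM channels, Trpm7, a channel joined to a kinase, read 9.72 and 9.41 in wild type mice and 9.63 and 9.52 in knockout mice. Its difference of 0.01 had a 95% interval from -0.32 to 0.34. Trpm4, a channel opened by intracellular calcium, read 7.66 and 7.97 against 8.05 and 8.24 (difference 0.33, adjusted p = 0.202; 0.18 without wild type replicate 1). Trpm2 read 6.73 and 6.93 in wild type and below background in knockout mice (adjusted p = 0.137), and Trpm3 overlapped. Trpm1, Trpm5, Trpm6 and Trpm8 lay below background on all arrays.

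TRPC channels open downstream of phospholipase C, and Trpc1 and Trpc4 were the members above background in a genotype. Trpc1 read 8.28 and 8.18 in wild type mice and 8.34 and 8.15 in knockout mice, a difference of 0.02 that turned to -0.08 with a further quantile normalization. Trpc4 read 6.70 and 6.71 against 6.01 and 6.33, so it was at least 1.09-fold lower with knockout mice below background, and it did not pass (adjusted p = 0.0811). Its difference ran from -0.695 to -0.376 with a mouse left out. Trpc5, Trpc6 and Trpc7 lay below background on all arrays.

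The IP3 receptors release stored calcium when agonists raise IP3, and the isoforms measured here went in opposite directions. Itpr2 read 10.58 and 10.27 in wild type mice and 9.99 and 9.37 in knockout mice. Itpr3 read 9.13 and 9.37 in wild type mice and 9.78 and 9.80 in knockout mice. For both genes the genotypes lay apart, with differences of -0.75 (SE 0.22, adjusted p = 0.0954) and 0.54 (SE 0.13, adjusted p = 0.0710). Neither passed in the comparison of all 4 mice without a block. With the replicate number as a block both passed (limma adjusted p = 0.0184 for Itpr2 and 0.0385 for Itpr3). The difference of Itpr2 was -1.06 without knockout replicate 1 and -0.44 without knockout replicate 2. Itpr2 was the member with the largest negative difference, and the bright genes that were lower with groups apart were Itpr2 and Stim1.

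Ryanodine receptors, which open in answer to calcium itself, lay close to background. Ryr1, the skeletal muscle form, read 6.69 and 6.78 in wild type mice and 6.40 and 6.39 in knockout mice (adjusted p = 0.119). Ryr2, the heart form, read 6.83 and 6.86 against 6.63 and 6.56. Ryr3 went the other way, with 6.77 and 6.73 in wild type mice and 7.06 and 7.03 in knockout mice (difference 0.30, adjusted p = 0.154). The groups lay apart for each of the 3 genes and none passed. The calsequestrins buffer calcium inside the store. Casq2, the heart and smooth muscle form, read 7.96 and 7.47 in wild type mice, and its knockout mean was 8.02 ± 0.03 (SD, n = 2; limma adjusted p = 0.292). Its difference of 0.31 was 0.063 without wild type replicate 2. Casq1, the skeletal muscle form, overlapped at 7.61 and 6.96 against 7.15 and 7.33.

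None of the 8 calcium pumps passed. Of the 3 SERCA pumps of the store, 2 read higher and 1 lower in knockout mice, and of the 2 Golgi pumps 1 read higher and 1 lower. Atp2a2 encodes SERCA2, the store pump of heart and smooth muscle. It read 12.29 and 12.12 in wild type mice and 12.44 and 12.52 in knockout mice (difference 0.28, adjusted p = 0.202). Atp2a3 read 8.28 and 8.60 against 8.76 and 8.97 (difference 0.42, adjusted p = 0.139; 0.26 without wild type replicate 1). Atp2a1, the skeletal muscle form, read 7.10 and 7.36 against 6.87 and 7.02, with the groups apart. Atp2c1, a Golgi pump, read 10.59 and 10.28 in wild type mice and 10.81 and 10.90 in knockout mice (difference 0.42, adjusted p = 0.123; 0.27 without wild type replicate 2), and Atp2c2 read 6.73 and 6.81 against 6.34 and 6.60. Atp2b1, the widespread plasma membrane pump, read 10.60 and 10.52 in wild type mice and 11.07 and 10.91 in knockout mice. Its difference of 0.43 had a 95% interval from 0.14 to 0.71 (adjusted p = 0.0939). Atp2b2, best known from nerve and the inner ear, read 7.42 and 7.54 against 6.98 and 7.33, and Atp2b3 lay near background.

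**Figure D4:**
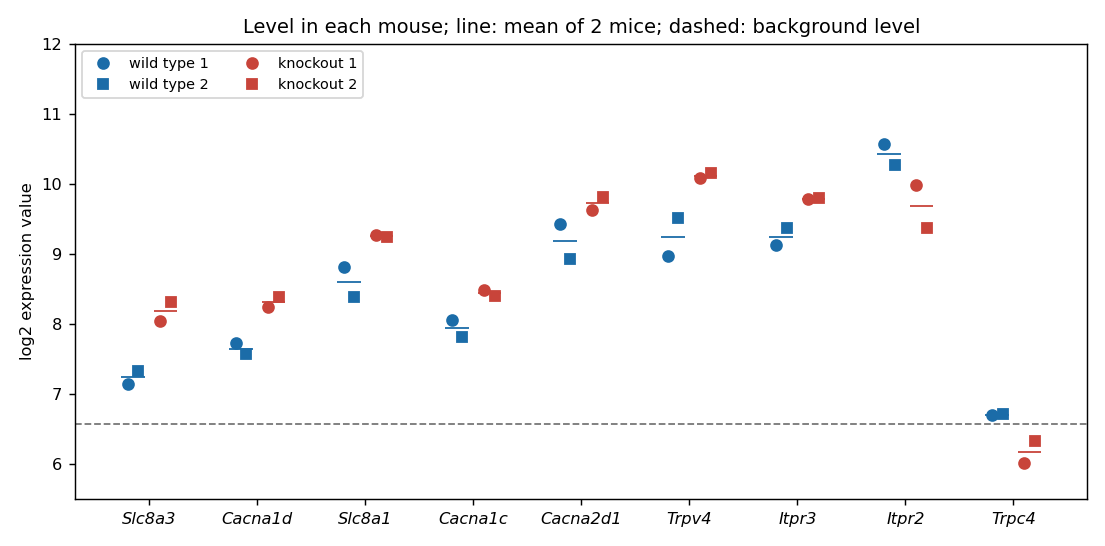
Log2 expression value in each mouse for the 9 members above background in a genotype, with genotypes apart and a difference of at least 0.5 in size; circles are replicate 1, squares replicate 2, short lines the mean of 2 mice and the dashed line the background level. Knockout mice lie above wild type mice for the first 7 genes and below them for Itpr2 and Trpc4.

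Other genes of calcium handling were read from a list of 79 genes, of which 73 were tested. Of these 3 rose, or 4.11% against 1.90% of all genes, and 0 fell, with a median difference of 0.04 against -0.02 over all genes. Before adjustment 12 were higher and 7 lower at a limma p under 0.05, or 16.4% and 9.59% against 12.7% and 13.8% of all genes. Rrad, a small GTPase that inhibits voltage-gated calcium channels, read 7.51 and 7.59 in wild type mice and 8.31 and 8.49 in knockout mice. It rose by 0.85 (limma adjusted p = 0.0332). Ppp3ca, a catalytic subunit of the calcium-dependent phosphatase calcineurin, read 10.55 and 10.60 against 11.25 and 11.27 and rose by 0.68 (adjusted p = 0.0394). Piezo2, a stretch-opened channel read from the brightest of 3 probe sets, read 7.02 and 6.80 against 7.64 and 7.92 and rose by 0.87 (adjusted p = 0.0403). Trdn, which ties calsequestrin to ryanodine receptors and has 19 probe sets, differed by 0.57 without passing (adjusted p = 0.0541). With either wild type mouse left out limma passed 0 of the list, while an unadjusted p under 0.05 was met by 8 higher and 6 lower genes without replicate 1 and by 11 and 4 without replicate 2. The calls of Ppp3ca and Piezo2 were lost with a further quantile normalization (0.0510 and 0.0623), and that of Ppp3ca also without knockout replicate 2 (0.0512).

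Markers of several cell types moved between the mice beside these genes. The mean of 12 urothelium markers was 11.54 and 11.83 in wild type mice and 12.11 and 12.47 in knockout mice, and all 12 were higher in knockout. Slc8a3, the member with the largest difference, had the same order of mice, lowest in wild type replicate 1 and highest in knockout replicate 2, and so did Trpv4, Itpr3, Trpm4, Cacnb1 and Atp2a3. Of the urothelium markers only Trp63 passed, with a rise of 0.83 (limma adjusted p = 0.0486). The mean of 10 smooth muscle markers was 11.20 and 11.11 against 11.51 and 11.33, with 8 higher and a median difference of 0.27. Cacna1c, Slc8a1, Atp2b1, Cacna2d3, Orai1, Ryr3 and Stim2 had that order of mice too. Cacna1d, the other called member, had neither order, at 7.73 and 7.57 in wild type mice and 8.24 and 8.38 in knockout mice. Where the genotypes lie apart few orders are possible, and the share of all genes with each order was not counted. Of the smooth muscle markers only Myocd passed, with a rise of 1.01 (limma adjusted p = 0.0208). The mean of 9 adipocyte markers was 12.83 and 12.74 in wild type mice and 12.56 and 12.13 in knockout mice, 8 of them lower. Itpr2 and Stim1 had the order of the adipocyte mean. Of 6 endothelium markers 5 were lower, with means of 10.22 and 10.31 against 10.18 and 9.95, and none passed. Of 7 lymphocyte markers, 4 lay above background, and Cd3d, Cd79a and Ms4a1 lay below it on all arrays. Of the 7, 6 were lower, with list means of 6.54 and 6.76 against 6.26 and 6.16. Ighm, an antibody heavy chain, fell by 1.22 (limma adjusted p = 0.0399). Among 6 Cajal-like cell markers Etv1 rose by 0.88 (limma adjusted p = 0.0368) and Ano1 read 0.49 higher without passing. Kit read 0.42 lower without passing. The 3 HCN channel genes also read lower but were dim. Hcn3 had a mean below background, Hcn2 and Hcn4 had means at most 1 unit above it, and Hcn2 overlapped between genotypes. The list means were 7.98 and 8.05 against 8.04 and 8.06. The part of these cell types in the differences of the members was not tested.

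**Figure D5:**
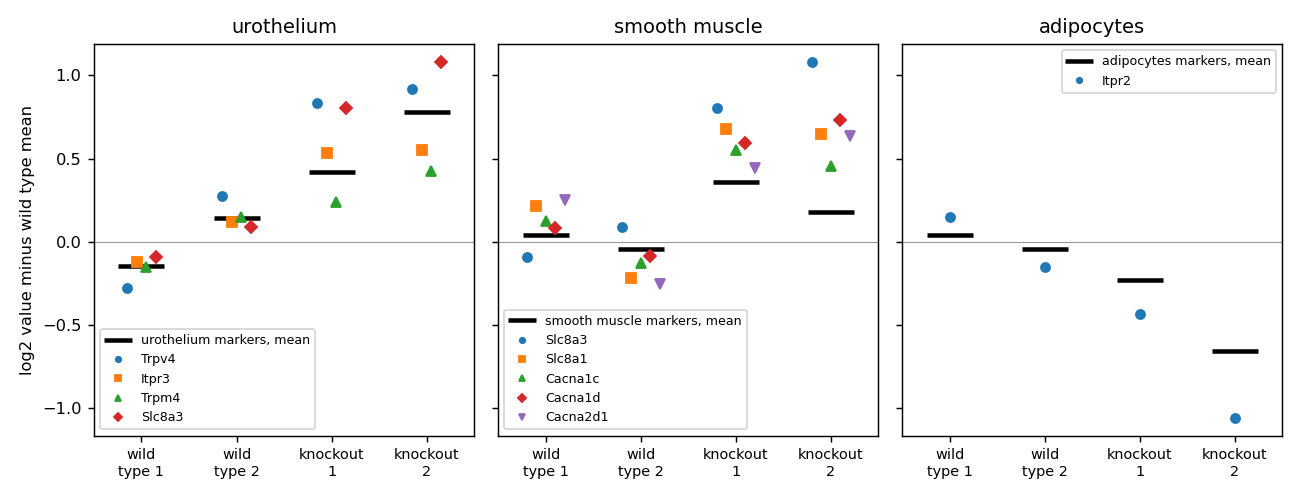
Log2 value in each mouse minus the mean of the wild type mice, for members (symbols) and the mean of a marker list (bars) of urothelium, smooth muscle and adipocytes. Slc8a3, Trpv4, Itpr3 and Trpm4 follow the order of the urothelium mean and Itpr2 that of the adipocyte mean. Cacna1c and Slc8a1 follow the order of the smooth muscle mean, and Cacna1d and Cacna2d1 do not. Slc8a3 also lies above the smooth muscle mean in both knockout mice.

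The mean of 14 kidney markers was highest in knockout replicate 1, at 8.45 against 6.97 in the other knockout mouse and 6.86 and 7.47 in wild type. Of these markers 12 lay above background, 11 were higher in knockout and none passed. Aqp2, Nphs1 and Pvalb were not highest in knockout replicate 1. Slc8a3 and Cacna1d were lower in knockout replicate 1 than in replicate 2. With each mouse left out in turn, their differences ran from 0.80 to 1.08 and from 0.58 to 0.74. The part of kidney tissue in these differences was not tested. Trpv5, a channel of the distal nephron, read 6.36 in that mouse and at most 6.21 in the others, all below background. Of 12 skeletal muscle markers 7 lay above background, and the myosin heavy chain genes Myh1, Myh2 and Myh4 lay below it on all arrays. The list mean was 7.20 and 7.33 in wild type mice and 7.17 and 7.12 in knockout mice. Of 8 nerve and glia markers 5 lay above background. The list mean over all 8 was 7.16 and 7.20 in wild type and at most 7.06 in knockout mice. Of the 8, only Uchl1 read higher in knockout, at 8.62 and 8.73 in wild type against 8.96 and 9.28, without passing.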

How the data were processed

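Ureter RNA, 500 ng per mouse, was labelled for 1 Affymetrix array per mouse, per the labels' protocols. The authors deposited log2 expression values per probe set; the submitters' processing notes list RMA, limma 3.12.1 and R 2.15.0. RMA makes array distributions alike, which shrinks changes common to most genes. The build of the probe sets was not stated in the labels.

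Of 23309 probe sets, 20728 carried 1 symbol in the platform annotation, 1174 several and 1407 none; the last 2 kinds were not used. The brightest probe set stood for each gene, and dim genes were kept. The background level is the 95th percentile of the means of olfactory receptor genes. A fold is "at least" where the dimmer group lies below background on both arrays, which then counts at that level.

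Limma 3.58.1 in R 4.3.3 (lmFit, eBayes) compared 2 knockout with 2 wild type mice, with Benjamini-Hochberg adjustment over 19296 genes; the fit was tested on simulated data. SE and 95% intervals are moderated. Counting depth does not exist for arrays, and 4 arrays limit the precision.

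The members, lists and rules were chosen with earlier results of these data known. Named are members past the threshold, those above background with groups apart and a difference of at least 0.5, the 2 of smallest p in each role, and 4 related genes of smallest p; others were named to account for every member. Alternatives were a threshold of 0.1, leaving out each mouse, every probe set or their mean, the replicate number as a block, array weights, robust or trended eBayes, a second quantile normalization, median-centred arrays and only genes above background.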

Additional observations from a re-analysis of the deposited data

How the results depend on the processing

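With 2 mice per genotype, few calls are secure, and a lone mouse was assumed to vary like the others. The calcium genes called were 2 higher and 0 lower. Whether same-numbered mice shared a source was not stated in the labels, and they did not deviate together (r = -0.03 across genes). With the replicate number as a block, 6 calcium genes were higher and 2 lower, 8 related genes were higher and 1 lower, and 1164 of all genes were higher and 758 lower. At an adjusted p under 0.1 the counts were 9 and 3, 8 and 2, and 1317 and 982. A further quantile normalization left 1 calcium gene, 1 related gene, and 164 of all genes higher and 50 lower. With centred arrays, where the median over all genes was -0.10 in place of -0.02, 1 calcium gene was higher and 317 of all genes were lower. Fitting every probe set gave 1 calcium and 6 related probe sets higher and 57 of all lower, array weights 1 calcium gene higher, and robust eBayes 655 of all genes higher and 247 lower. With each mouse left out in turn, 0 to 3 calcium genes were higher and 0 to 1 lower, 0 to 5 related genes higher and 0 to 1 lower, and 0 to 1115 of all genes higher and 0 to 629 lower. The difference of Casq1, -0.04, turned to 0.011 with quantile normalization and ran from -0.36 to 0.28 over the mice left out. That of Orai2, -0.12, turned to 0.11 with the mean of probe sets and ran from -0.29 to 0.041 with a mouse left out. That of Trpc1, 0.02, turned to -0.080 with quantile normalization and -0.062 with centred arrays, and ran from -0.079 to 0.11 with a mouse left out. The cause was not tested, beyond the fewer samples when a mouse is left out. Of the 66 members, 20 changed sign under at least 1 processing alternative or with a mouse left out, all with differences of at most 0.14 in size and none called. Among them Trpm7, 0.01, turned to -0.082 with quantile normalization and -0.068 with centred arrays, and Cacng4, 0.04, to -0.045 and -0.042. The members lower at an unadjusted p under 0.05 numbered 15, and 6 to 22 under processing alternatives and 4 to 17 with a mouse left out.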
